A study of Homo sapiens with 21 samples.

Results

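SK-MEL-147 cells, a line grown from a human melanoma, transcribe a small set of genes that are better known from epithelia: the keratin genes KRT7, KRT8, KRT15 and KRT18, the claudin gene CLDN4, the suprabasin gene SBSN and the transcription factor gene EHF. These 7 of the 26475 genes in the table were picked by name when their levels and their differences between the treatments of these same libraries were already known. Their levels and differences are therefore given as a description, with errors and without p-values, and no statement rests on the number of them that passed a test. All 7 had enough counts to be tested.

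RNA sequencing of poly-A selected RNA covered 7 groups of 3 replicate libraries, 21 in all, of the same line: cells given JQ-1, TP-472, GSK-591, MS023, GSK-484 or UNC0642, and untreated cells. JQ-1 binds the bromodomains of the BET proteins, which read acetylated histones, and TP-472 binds those of BRD9 and BRD7, subunits of SWI/SNF chromatin remodelling complexes. The arginine methyltransferase PRMT5 is the target of GSK-591, and the type I enzymes of that family are the targets of MS023. GSK-484 blocks PADI4, which turns arginine into citrulline, and UNC0642 inhibits EHMT2 and EHMT1, the enzymes that dimethylate lysine 9 of histone H3. No dose, treatment time or vehicle is stated in the sources used here, so the compounds stand side by side without a match of dose. The replicates are called biological but are not stated to be separate cultures, so errors and p-values cover the spread between these libraries alone, which may be technical. Levels below are CPM, that is counts scaled to a common TMM-adjusted library total, and differences are log2 values from the edgeR fit of all 21 libraries with their standard error (SE). A gene was called where its edgeR quasi-likelihood p, adjusted by Benjamini-Hochberg over the 15062 genes tested, was under 0.05.

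Keratins are the intermediate filament proteins of epithelial cells, and a filament needs a type I and a type II keratin in pairs. KRT8 (type II) and KRT18 (type I) are the pair of simple epithelia, KRT7 is a type II keratin of glands and ducts, and KRT15 is a type I keratin of basal cells in stratified epithelia and hair follicles. CLDN4 is a membrane protein of tight junctions, SBSN is a secreted protein of the upper layers of the epidermis, and EHF is an ETS-family transcription factor of epithelia. Melanoma cells descend from melanocytes, a neural crest lineage whose main intermediate filament protein is vimentin.

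Markers of the melanocyte lineage and of epithelial cells were mostly near 0, while vimentin was abundant. In untreated cells VIM, which encodes vimentin, averaged 7449 ± 342 CPM (SD, n = 3), and SOX10, a transcription factor of the melanocyte lineage, averaged 362 ± 11.4 CPM. MITF, the regulator of pigment cells, averaged 12.8 ± 0.53 CPM. SOX10 and MITF were the only 2 of 8 melanocyte lineage markers that reached 1 CPM in any library of any group: the pigment genes PMEL, MLANA, TYR, DCT and TYRP1, and S100B, did not. Of 10 epithelial markers, CDH1, EPCAM, ESRP1, GRHL2, CLDN3, CLDN7, KRT19, KRT5, KRT14 and TP63, none reached 1 CPM in any library of 6 groups, and 1 did with UNC0642. Other genes known from epithelia were transcribed in untreated cells, among them KRT80 and KRT81, at 199.7 ± 5.47 and 198 ± 18.4 CPM.

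UNC0642 replicate 1 stood apart from the other libraries in these markers. Its 10 epithelial markers summed to 4.396 CPM, against 0.392 to 1.08 CPM in the other 20 libraries. EPCAM, an epithelial adhesion molecule, had 41 counts there (1.202 CPM), CDH1, which encodes E-cadherin, had 32, CLDN7 had 27 and KRT19 had 21. Replicate 2 of UNC0642 had 2 counts of CDH1 and 1 of EPCAM, and replicate 3 had 0 of both. The differences and counts of calls with UNC0642 are therefore also given without replicate 1, and the part of these transcripts in its other values was not tested. Summed counts ran from 20978182 to 78776788 over the 21 libraries.

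The promoters of SBSN, EHF and CLDN4 are printed because these genes carry contrasting profiles: SBSN and EHF were higher with UNC0642 and lower with JQ-1 than in untreated cells, and CLDN4 stayed within a narrow range in all groups. Each run holds 250 bases before and 50 bases after a RefSeq start site on GRCh38.p14, 5′ to 3′ on the strand of the gene. Capitals mark matches to TGANTCA, the AP-1 motif written with any base in its centre. EHF has 2 starts in the table, and both are shown.
SBSN, chr19:35528262-35528561, minus strand: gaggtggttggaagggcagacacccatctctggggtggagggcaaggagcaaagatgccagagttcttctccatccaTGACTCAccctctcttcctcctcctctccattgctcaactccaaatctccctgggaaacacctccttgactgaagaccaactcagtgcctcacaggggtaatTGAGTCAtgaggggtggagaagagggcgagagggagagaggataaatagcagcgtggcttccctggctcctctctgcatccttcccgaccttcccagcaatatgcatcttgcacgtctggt
EHF, upstream start, chr11:34624007-34624306, plus strand: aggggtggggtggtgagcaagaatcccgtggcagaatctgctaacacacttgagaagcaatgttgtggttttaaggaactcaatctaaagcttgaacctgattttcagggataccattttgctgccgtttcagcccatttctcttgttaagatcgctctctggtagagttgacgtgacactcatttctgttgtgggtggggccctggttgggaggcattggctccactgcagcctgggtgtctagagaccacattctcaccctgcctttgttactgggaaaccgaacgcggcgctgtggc
EHF, downstream start, chr11:34632316-34632615, plus strand: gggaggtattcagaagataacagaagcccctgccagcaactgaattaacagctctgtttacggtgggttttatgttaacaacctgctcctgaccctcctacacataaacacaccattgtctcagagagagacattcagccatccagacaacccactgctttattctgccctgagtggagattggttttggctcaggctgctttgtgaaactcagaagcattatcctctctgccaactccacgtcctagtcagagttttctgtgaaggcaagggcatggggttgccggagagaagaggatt
CLDN4, chr7:73830746-73831045, plus strand: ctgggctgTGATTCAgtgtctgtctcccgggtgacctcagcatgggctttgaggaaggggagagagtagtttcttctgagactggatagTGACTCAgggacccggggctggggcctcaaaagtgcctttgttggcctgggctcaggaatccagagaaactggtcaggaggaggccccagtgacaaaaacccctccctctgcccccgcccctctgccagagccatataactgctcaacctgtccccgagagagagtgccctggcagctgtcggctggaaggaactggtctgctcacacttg

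The search covered both strands for 5 motifs. Besides the AP-1 motif it took the TATA box as TATAAA, which 11.5% of all promoters hold. For the ETS family, to which EHF itself belongs, it took CAGGAAGT and the shorter core that this site contains, and these are held by 3.08% and 22.8% of promoters. For the SNAI and ZEB repressors it took the E-box CACCTG, held by 20.6%. TGANTCA was found at positions -173 and -71 of the SBSN promoter and at -242 and -161 of the CLDN4 promoter, counted from the start site, and 7.71% of the 35116 promoters of the same length hold it at least once. None of the 5 motifs was found in either EHF window. The windows held few CpG pairs: 4 in SBSN, 8 and 3 in EHF and 5 in CLDN4, against a median of 14 over all promoters. Of the 7 genes, 4 were in the promoter table. The CLDN4 window and both EHF windows lie inside the annotated span of their genes, at starts downstream of the outermost one, as does the entry for KRT8, which is not printed. The KRT8 window holds a match to the ETS core at position -59, on the strand opposite to the gene. KRT7, KRT15 and KRT18 are named only.

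Per kilobase of the longest coding transcript in GENCODE 29, the order of levels in untreated cells was CLDN4, KRT18, KRT15, EHF, KRT8, SBSN and KRT7. CLDN4 averaged 32.8 ± 2.69 and KRT18 29.1 ± 1.06 CPM per kilobase (SD, n = 3), and these neighbours lie within their spread of each other. KRT15 averaged 14.2 ± 0.927, EHF 10.1 ± 0.637 and KRT8 5.53 ± 0.536 CPM per kilobase. SBSN and KRT7 were lowest and close together, at 2.21 ± 0.367 and 2.01 ± 0.385 CPM per kilobase. The first 4 places stayed the same with the union of exons and with the transcript paired with RefSeq, while CLDN4 came to 74.6 CPM per kilobase with the RefSeq-paired transcript. The gene models behind the counts are not stated in the sources used here, so this order carries the error of the lengths. Among the 7 genes, the type II keratin genes KRT8 and KRT7 were far below the type I genes KRT18 and KRT15. Without a correction for length, KRT8 made up 21.4 ± 1.59% of the KRT8 and KRT18 counts in untreated cells. This does not extend to all type II keratins: KRT80 and KRT81 lay at 199.7 ± 5.47 and 198 ± 18.4 CPM.

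**Figure D1:**
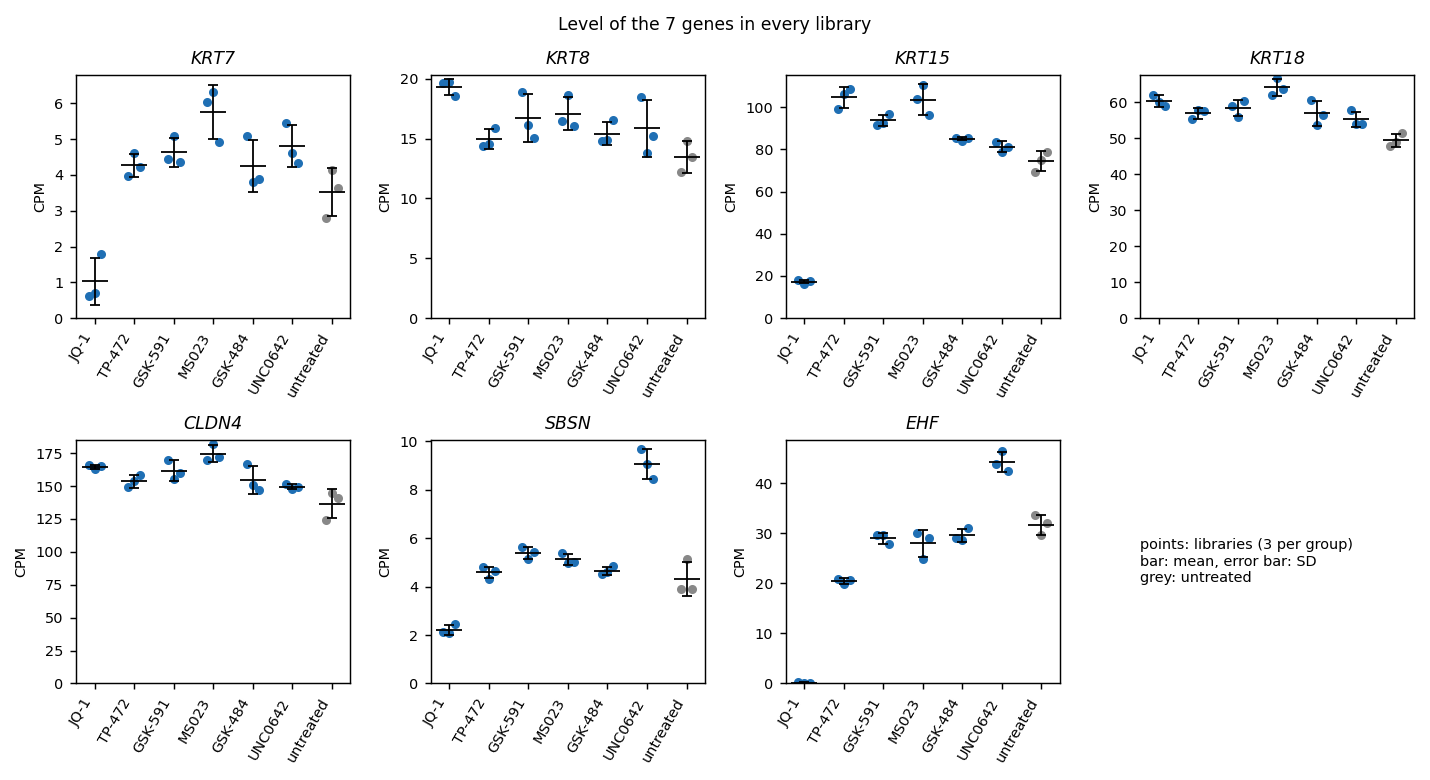
Level of each of the 7 genes in CPM (vertical axis, linear, from 0) in all 21 libraries, by group, with untreated cells at the right of each panel in grey. Points are libraries, the bar is the mean of 3 and the error bar is the SD. EHF lies at 0.056 to 0.248 CPM with JQ-1 against 29.6 to 33.5 CPM in untreated cells, and SBSN at 8.42 to 9.67 CPM with UNC0642 against 3.89 to 5.13 CPM.

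JQ-1 split the 7 genes. EHF all but disappeared, KRT15 was lower by 4.29-fold, KRT7 by 3.52-fold and SBSN by 1.95-fold, while KRT8, KRT18 and CLDN4 were higher by 1.44-fold, 1.22-fold and 1.21-fold. All 7 passed the test, as did 73.3% of all genes tested: 3 were called higher, against 35.7% of all genes, and 4 lower, against 37.6%. The 3 and 3 libraries did not overlap for any of the 7, nor for 74.7% of all genes. In bulk RNA, fewer cells that transcribe a gene and less of its RNA in each cell cannot be told apart.

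EHF (chromosome 11, 34621093 to 34661057, plus strand, hg38) had 0.248, 0.056 and 0.138 CPM in JQ-1 libraries, from 9, 2 and 4 counts, against 33.5, 29.6 and 32.0 CPM in untreated libraries. Every JQ-1 library was close to no expression and every untreated one far above it, with no overlap. The log2 difference was -7.71 (SE 0.38), or 209.7-fold lower, and it stayed between -8.37, without JQ-1 replicate 1, and -7.30 under 16 other ways of processing. The levels of its neighbours moved far less: APIP, an enzyme gene of methionine salvage, lay at 27.4 ± 1.57 CPM with JQ-1 and 37.5 ± 1.93 CPM in untreated cells, so that it fell by 0.45 on the log2 scale (SE 0.062), and ELF5, the ETS-family gene on the other side, was near 0 in both groups.

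KRT15 (chromosome 17, 41513743 to 41522529, minus strand) had 18.1, 16.4 and 17.5 CPM with JQ-1 and 69.3, 75.2 and 78.9 CPM in untreated libraries. The JQ-1 values sat close together and far below all untreated ones, with a log2 difference of -2.10 (SE 0.060). The type I keratin genes on either side were barely transcribed: KRT13 averaged 0.057 CPM with JQ-1 and 0.137 CPM in untreated cells, and KRT19 0.030 and 0.015 CPM. KRT7 (chromosome 12, 52232520 to 52252186, plus strand) had 0.606, 0.700 and 1.79 CPM with JQ-1 and 2.81, 4.14 and 3.64 CPM in untreated libraries. JQ-1 replicate 3 was well above the other JQ-1 libraries but still below every untreated one, and the log2 difference was -1.82 (SE 0.262). Without that library it was -2.42, or 5.34-fold lower.

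KRT7 lies among other type II keratin genes, and KRT80, KRT81 and KRT86 fell with JQ-1 as well. KRT80, a type II keratin gene 40520 bases away, averaged 42.1 ± 1.25 CPM with JQ-1 and 199.7 ± 5.47 CPM in untreated cells (log2 difference -2.24, SE 0.038, edgeR adjusted p = 1.50e-22). KRT81, a hair keratin gene 33727 bases away on the other side, averaged 71.0 ± 1.93 CPM with JQ-1 and 198 ± 18.4 CPM in untreated cells (-1.48, SE 0.057). KRT86, another hair keratin gene whose annotation overlaps KRT7, averaged 0.375 ± 0.094 and 2.23 ± 0.625 CPM (-2.54, SE 0.296). KRT81, KRT83 and KRT86 are near-identical in sequence, so the division of counts among them is uncertain.

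SBSN (chromosome 19, 35523367 to 35528351, minus strand) had 2.12, 2.07 and 2.44 CPM with JQ-1 and 3.90, 5.13 and 3.89 CPM in untreated libraries. The groups were separate and the log2 difference was -0.96 (SE 0.118). Its neighbour DMKN, which encodes dermokine, another secreted protein of the upper epidermis, also fell, with 0.416 ± 0.257 CPM with JQ-1 and 0.873 ± 0.098 CPM in untreated cells (log2 difference -1.02, SE 0.345, edgeR adjusted p = 0.0092). GAPDHS on the other side was not called.

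The 3 genes that were higher with JQ-1 differed little in size. KRT8 (chromosome 12, 52897187 to 52949954, minus strand) had 19.6, 19.8 and 18.6 CPM with JQ-1 and 12.2, 14.8 and 13.4 CPM in untreated libraries, a log2 difference of 0.53 (SE 0.098). KRT18 (chromosome 12, 52948871 to 52952901, plus strand) had 62.0, 59.96 and 58.9 CPM with JQ-1 and 47.8, 48.8 and 51.3 CPM in untreated libraries (0.29, SE 0.048). CLDN4 (chromosome 7, 73799542 to 73832693, plus strand) had 166, 163 and 165 CPM with JQ-1 and 124, 145 and 141 CPM in untreated libraries (0.27, SE 0.052). In each of these genes the lowest JQ-1 library was above the highest untreated one. Against the other treated groups in place of untreated cells the difference was 0.28 for KRT8 but only 0.050 for KRT18 and 0.053 for CLDN4, which ended the calls of both.

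KRT8 and KRT18 overlap start to start on opposite strands, and both had fractional counts in 21 of 21 libraries, which arise where reads match more than 1 gene. Whether the libraries keep the strand is not stated in the sources used here, so part of the reads of either gene may belong to the other. Their pseudogenes in the table, KRT8P41 and KRT18P55, held at most 5 and 3 counts in any library. The KRT8 part of the KRT8 and KRT18 counts was 24.3 ± 0.448% with JQ-1 and 21.4 ± 1.59% in untreated cells (SD, n = 3 each). The lowest JQ-1 library, at 23.97%, lay above the highest untreated one, at 23.2%, and with the other 5 compounds the group means were 20.8 to 22.2%. The highest libraries of GSK-591 and UNC0642, both at 24.3%, lay within the JQ-1 range of 23.97 to 24.8%. That UNC0642 library was replicate 1, the one with epithelial marker counts, and the lowest of its group was at 20.4%.

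**Figure D2:**
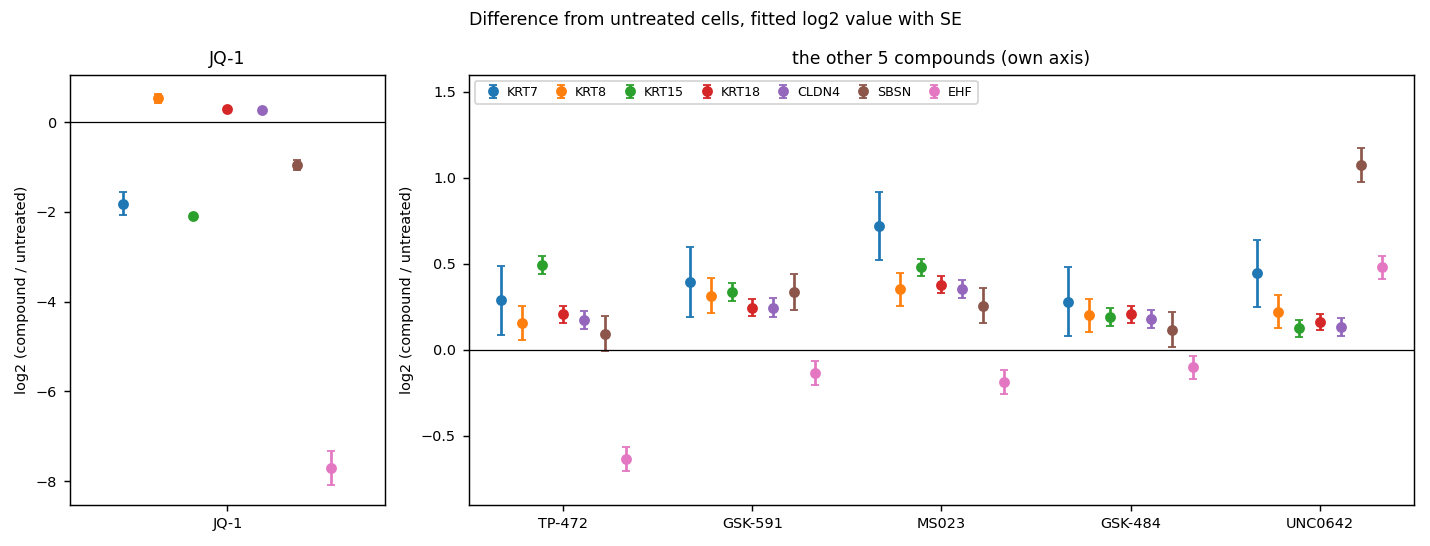
Fitted log2 difference of each gene from untreated cells (points) with its SE (bars), with JQ-1 on its own axis at the left and the other 5 compounds at the right. With JQ-1, EHF is at -7.71, KRT15 at -2.10, KRT7 at -1.82 and SBSN at -0.96, and with UNC0642 SBSN is at 1.07 and EHF at 0.48.

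Other genes of epithelia moved in both directions with JQ-1. Of 163 other genes in 10 lists of keratins, junction proteins, epithelial genes and their repressors, and filament genes, 67 had enough counts to be tested. With JQ-1, 13 rose, 31 fell and 23 were not called (edgeR quasi-likelihood test). That is 65.7% called, against 73.3% of all genes. The rises are set against 35.7% of all genes called higher and the falls against 37.6% called lower. Of the 31 that fell, 5 were repressors of epithelial genes. The lists had a median log2 difference of -0.36, against -0.0064 for all genes.

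Among keratins other than the 4 above, none of the 7 type I genes tested rose and 5 fell (median log2 difference -1.39), and none of the 5 type II genes rose and 4 fell (median -2.24). That is 71.4% and 80% called, against 73.3% of all genes. The type I median is the value of KRT13 (SE 0.932), which was not called and averaged 0.057 CPM with JQ-1 and 0.137 CPM in untreated cells. It lay between -2.20 and -1.17 under the alternatives. Over 16 alternatives no keratin of either list rose, while 5 to 6 type I and 3 to 5 type II genes fell. The type II genes tested were KRT79, KRT80, KRT81, KRT83 and KRT86. Counts of the last 3 are divided with uncertainty, as said above, so their falls are not separate observations. Only 3 type II genes were tested in thinned libraries and with both groups fitted alone. The type I keratin gene KRT34, of hair, averaged 1.34 CPM with JQ-1 and 3.27 CPM in untreated cells, and KRT10, of the upper epidermis, 21.6 and 32.1 CPM. KRT79, a type II keratin gene of skin appendages, had no counts with JQ-1 and averaged 0.151 CPM in untreated cells. Among 6 other claudins, CLDN15 rose and CLDN1 and CLDN18 fell, or 50% called, with 0 to 2 rising and 1 to 2 falling under the alternatives. CLDN1, the main claudin of the epidermis, averaged 1.28 ± 0.385 CPM with JQ-1 and 7.38 ± 0.601 CPM in untreated cells (log2 difference -2.54, SE 0.15, edgeR adjusted p = 1.04e-13), the opposite direction to CLDN4.

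Genes of cell junctions moved in both directions. Of 9 tight junction genes 2 rose and 4 fell, with a median log2 difference of -0.011 that lay between -0.15 and 0.071 under the alternatives, and of 7 desmosome genes 2 rose and 4 fell. That is 66.7% and 85.7% called, against 73.3% of all genes. INADL, the older symbol of PATJ, which encodes a scaffold of tight junctions, fell by 3.46 on the log2 scale (SE 0.175). CGN, which encodes cingulin of the tight junction plaque, rose, with 2.35 ± 0.419 CPM with JQ-1 and 0.063 ± 0.036 CPM in untreated cells (5.14, SE 0.696). The untreated libraries held 1 to 4 counts of CGN, and the difference was 3.84 against the other treated groups in place of untreated cells. PKP3, a plakophilin gene of desmosomes, fell by 2.48 (SE 0.107). DSC2, a desmocollin gene, fell by 1.89 (SE 0.085), and JUP, which encodes plakoglobin, rose by 1.48 (SE 0.184).

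Among 9 epithelial transcription factor genes, 3 rose and 2 fell, or 55.6% called against 73.3% of all genes. ELF3, like EHF an ETS-family factor of epithelia, fell the most, with 0.222 ± 0.102 CPM with JQ-1 and 3.69 ± 0.195 CPM in untreated cells (log2 difference -4.01, SE 0.272, edgeR adjusted p = 5.48e-14). TFAP2A and GRHL1, transcription factors of ectoderm and epidermis, rose by 1.12 (SE 0.049) and 1.14 (SE 0.231). Of the 6 repressors of epithelial genes tested, ZEB1, ZEB2, SNAI1, SNAI2 and TWIST2 fell and TWIST1 was not called (median -0.62), with 4 to 5 of them falling under the alternatives. That is 83.3% called, all lower, where 73.3% of all genes were called and 37.6% called lower. SNAI2, the repressor known as Slug, averaged 18.05 ± 0.772 CPM with JQ-1 and 53.8 ± 0.848 CPM in untreated cells (-1.57, SE 0.056).

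Of 7 genes of the epithelial surface CD24 rose and 3 fell, and of 5 genes of the upper epidermis none rose and 2 fell. That is 57.1% and 40% called, against 73.3% of all genes. In the same libraries 4 of 6 filament and linker genes other than keratins rose, or 66.7%, where 35.7% of all genes were called higher. VIM averaged 12423 ± 109 CPM with JQ-1 and 7449 ± 342 CPM in untreated cells (log2 difference 0.74, SE 0.031), and LMNA, which encodes the nuclear lamins A and C, 1563 ± 25.9 and 570 ± 16.2 CPM (1.46, SE 0.046). PLEC, which encodes the filament linker plectin, and CD24, a surface glycoprotein, rose by 0.96 (SE 0.082) and 1.296 (SE 0.042). The 5 fibroblast markers, PDGFRA, PDGFRB, LUM, DCN and COL3A1, summed to 1.93 to 2.27 CPM with JQ-1 and 8.20 to 9.58 CPM in untreated libraries, with DCN at 0 in both groups, and their part in the other values was not tested.

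**Figure D3:**
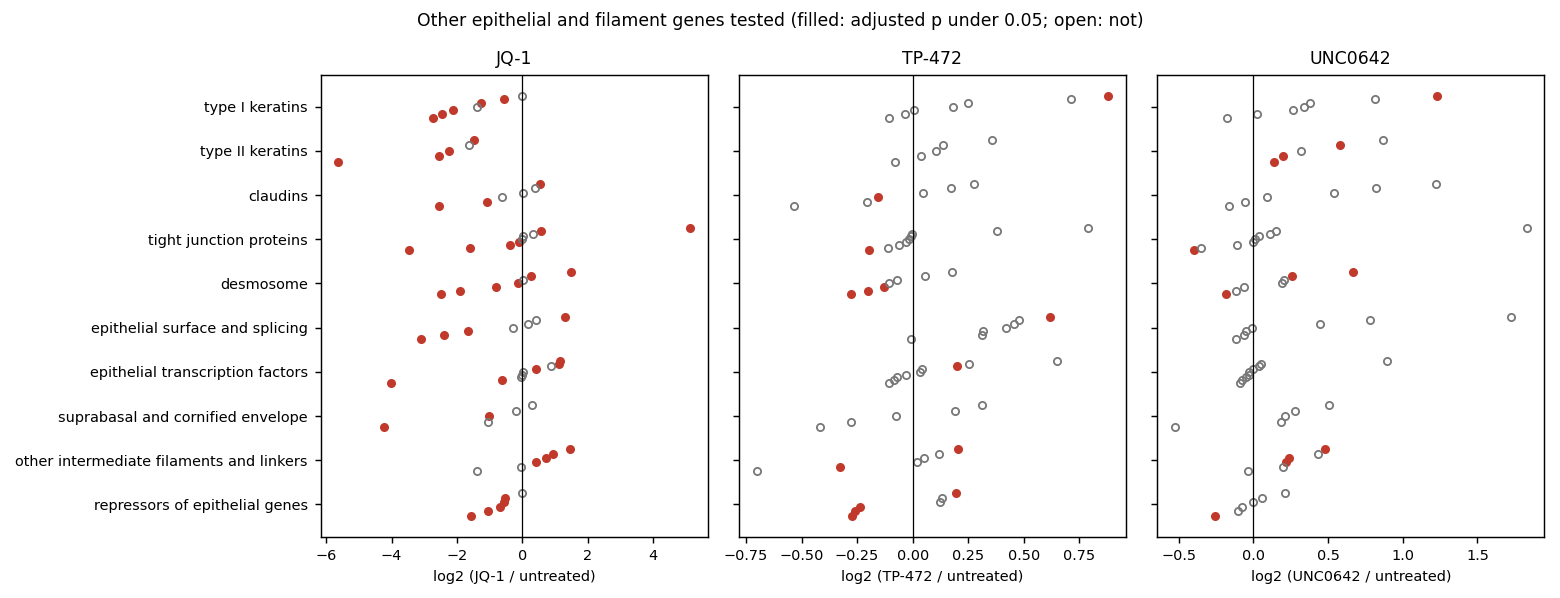
Fitted log2 differences from untreated cells of the 67 tested genes of the 10 lists, by list, for JQ-1, TP-472 and UNC0642, each on its own axis. A point is a gene, filled where the edgeR adjusted p was under 0.05. All filled keratin points lie left of 0 with JQ-1, where 31 genes fell and 13 rose, and KRT79, without counts in JQ-1 libraries, is drawn at a fitted value that is no bound.

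UNC0642 was the only compound with which both SBSN and EHF were higher than in untreated cells and lay above every other group. SBSN had 9.67, 9.04 and 8.42 CPM with UNC0642 and 3.90, 5.13 and 3.89 CPM in untreated libraries, and no library of any other group exceeded 5.63 CPM. The log2 difference from untreated cells was 1.07 (SE 0.097), a level 2.11-fold higher, and it stayed between 0.87 and 1.23 under 16 other ways of processing. EHF had 43.8, 46.3 and 42.5 CPM with UNC0642 and 33.5, 29.6 and 32.0 CPM in untreated libraries. The groups were separate, and the difference was 0.48 (SE 0.066), a level 1.39-fold higher, with a range of 0.44 to 0.74 under the alternatives.

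Without UNC0642 replicate 1, the library with epithelial marker counts, the difference was 1.04 for SBSN and 0.49 for EHF. That library was also the highest of the 3 in KRT8, with 18.5 CPM against 13.8 and 15.2 CPM, and the KRT8 difference was 0.22 (SE 0.096) with it and 0.12 without it. KRT15 had 83.7, 78.6 and 81.4 CPM with UNC0642 and 69.3, 75.2 and 78.9 CPM in untreated libraries, which overlapped. KRT7 had 5.45, 4.61 and 4.34 CPM with UNC0642 and 2.81, 4.14 and 3.64 CPM in untreated libraries, a difference of 0.44 (SE 0.195). KRT18 and CLDN4 differed by 0.16 (SE 0.047) and 0.13 (SE 0.052). Without replicate 1 the differences were 0.36 for KRT7, 0.11 for KRT15, 0.14 for KRT18 and 0.13 for CLDN4. Of the 7 genes 3 were called, all higher, and 0 were lower, where 16.3% of all genes were called, 8.71% higher and 7.54% lower. Without replicate 1, 2 of the 7 were called, where 2084 of 15247 genes were. The libraries of 5 of the 7 genes did not overlap, against 33.8% of all genes. There were also 5 without replicate 1, where fewer libraries overlap less readily, and the share of all genes was not computed there. Against the other treated groups in place of untreated cells, KRT15 and KRT18 were called lower with UNC0642, by log2 differences of -0.25 and -0.099.

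None of the neighbours of SBSN and EHF was called higher with UNC0642. DMKN averaged 1.04 ± 0.374 CPM with UNC0642 and 0.873 ± 0.098 CPM in untreated cells, and GAPDHS 1.71 ± 0.244 and 1.18 ± 0.211 CPM. Neither was called, but the GAPDHS libraries did not overlap, as in 33.8% of all genes. Its log2 difference of 0.53 (SE 0.204) was about as large as that of EHF. APIP, beside EHF, fell, with 32.0 ± 1.10 CPM with UNC0642 and 37.5 ± 1.93 CPM in untreated cells (log2 difference -0.23, SE 0.059, edgeR adjusted p = 0.013). Without replicate 1 APIP was still called (-0.24) and DMKN and GAPDHS were not. Of the 67 list genes 9 rose and 3 fell, or 17.9% called against 16.3% of all genes. Without replicate 1, 8 list genes rose and 3 fell, where 1234 of 15247 genes rose and 850 fell. The list genes had a median log2 difference of 0.11 against 0.017 for all genes, and of 0.057 against 0.023 without replicate 1. SNAI2 fell by 0.26 (SE 0.050, edgeR adjusted p = 0.0022) and stayed called under all 16 alternatives. JUP, KRT86, PLEC and PKP3 rose by 0.67 (SE 0.186), 0.58 (SE 0.189), 0.48 (SE 0.082) and 0.26 (SE 0.076), but none of these calls held with the base composition trend of each library removed, as described below. JUP, KRT86 and PKP3 also lost their call without UNC0642 replicate 1.

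With TP-472 EHF was lower and KRT15 higher than in untreated cells, and the differences of the other genes were smaller. EHF had 20.8, 19.8 and 20.8 CPM with TP-472 and 33.5, 29.6 and 32.0 CPM in untreated libraries. The TP-472 libraries were nearly equal and all below the untreated ones, with a log2 difference of -0.64 (SE 0.070), or 1.55-fold lower, and a range of -0.68 to -0.52 under the alternatives. KRT15 had 99.0, 106 and 108 CPM with TP-472 and 69.3, 75.2 and 78.9 CPM in untreated libraries, again without overlap, and its difference was 0.49 (SE 0.051), with a range of 0.21 to 0.53.

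The remaining genes differed less from untreated cells. KRT7 had 3.96, 4.62 and 4.22 CPM with TP-472, KRT8 had 14.4, 14.5 and 15.9 CPM, and SBSN had 4.80, 4.33 and 4.62 CPM, and each overlapped the untreated libraries. SBSN differed from untreated cells by 0.094 but was called lower, at -0.35, against the other treated groups in place of untreated cells. KRT18 and CLDN4 differed by 0.21 (SE 0.047) and 0.17 (SE 0.052). Of the 7 genes 4 were called, 3 higher and 1 lower, against 31.8% of all genes, with 17.3% called higher and 14.5% lower. The libraries of 4 genes did not overlap, against 41.9% of all genes. Of the 67 list genes 5 rose and 9 fell, or 20.9% (median 0.034 against 0.012 for all genes), and 7 were called without untreated replicate 1, 8 without TP-472 replicate 2 and 7 without TP-472 replicate 3. ZEB1 and ZEB2 fell by 0.27 (SE 0.056) and 0.26 (SE 0.055), and DSG2, a desmoglein of desmosomes, by 0.28 (SE 0.056). The calls of ZEB1 and ZEB2 ended with the base composition trend removed, and that of DSG2 ended against the other treated groups.

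TP-472 and JQ-1, the bromodomain ligands, were also set directly against each other. EHF was higher with TP-472 than with JQ-1 by 7.08 on the log2 scale (SE 0.38), KRT15 by 2.59 (SE 0.059), KRT7 by 2.11 (SE 0.259) and SBSN by 1.05 (SE 0.117). These were 7.74 for EHF without JQ-1 replicate 1 and 2.71 for KRT7 without JQ-1 replicate 3. KRT8 was lower with TP-472, with 14.4, 14.5 and 15.9 CPM against 19.6, 19.8 and 18.6 CPM with JQ-1 (-0.37, SE 0.097). KRT18 and CLDN4 differed by -0.084 (SE 0.047) and -0.099 (SE 0.052), and the signs turned with total-count scaling. Of the 7 genes 5 were called, 4 higher and 1 lower, against 72.3% of all genes, with 37.5% called higher and 34.8% lower, and no gene of the 7 had overlapping libraries, against 76.9% of all genes without overlap. Both compounds lay below untreated cells in EHF, at 20.4 ± 0.552 CPM with TP-472, 0.147 ± 0.096 CPM with JQ-1 and 31.7 ± 2.01 CPM in untreated cells. These comparisons with untreated cells share the same untreated libraries.

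Of the list genes, 32 were higher and 15 lower with TP-472 than with JQ-1. That is 70.1% called, against 72.3% of all genes, with a median of 0.33 against 0.014. All 6 repressors of epithelial genes were called higher (median 0.74), where 37.5% of all genes were. Among them was TWIST1, which JQ-1 alone did not move past the test. ELF3 was higher with TP-472 by 4.26, INADL by 3.45, KRT86 by 2.90 and PKP3 by 2.66, and CGN, JUP, CD24 and LMNA were lower, by fitted log2 differences of -4.35, -1.43, -1.303 and -1.25.

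With the arginine methyltransferase inhibitors most of the genes were higher than in untreated cells by small amounts. With MS023, KRT15 had 104, 111 and 96.3 CPM against 69.3, 75.2 and 78.9 CPM in untreated libraries (log2 difference 0.48, SE 0.051), CLDN4 had 170, 182 and 172 CPM against 124, 145 and 141 CPM (0.36, SE 0.052), and KRT18 had 62.0, 66.7 and 63.6 CPM against 47.8, 48.8 and 51.3 CPM (0.38, SE 0.047). In these genes every MS023 library was above every untreated one. KRT7 was highest of all groups with MS023, at 6.02, 6.32 and 4.91 CPM, a difference of 0.72 (SE 0.196) from the 2.81, 4.14 and 3.64 CPM of untreated libraries. KRT8 differed by 0.35 (SE 0.097) and SBSN by 0.26 (SE 0.102), and EHF by -0.19 (SE 0.069), and SBSN and EHF overlapped the untreated libraries.

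With GSK-591 the differences from untreated cells were smaller than with MS023 for every gene but SBSN. KRT15 had 91.8, 92.7 and 96.9 CPM, a difference from untreated cells of 0.33 (SE 0.052), and SBSN had 5.63, 5.15 and 5.41 CPM, a difference of 0.34 (SE 0.106). KRT7, KRT8, KRT18 and CLDN4 differed by 0.39 (SE 0.205), 0.32 (SE 0.1004), 0.25 (SE 0.048) and 0.25 (SE 0.053), without overlap in any of the 4. EHF, at 29.6, 29.7 and 27.8 CPM, overlapped the untreated libraries. With GSK-484 EHF differed by -0.10 (SE 0.068) and the other 6 genes by 0.12 (SE 0.104, SBSN) to 0.28 (SE 0.201, KRT7).

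With MS023 all 7 genes were called, 6 higher and 1 lower, against 42.6% of all genes, with 22% called higher and 20.6% lower, and 5 did not overlap, against 48.8%. Of these calls, that of SBSN ended in 14 of 16 alternatives, DESeq2 among them, and that of EHF in 7. With GSK-591 5 were called, all higher, against 32.9% of all genes, 18.1% called higher and 14.8% lower, and 6 did not overlap, against 42%. With GSK-484 3 were called, all higher, against 19.1% of all genes, 11.4% called higher and 7.66% lower, and 4 did not overlap, against 27.6%. Single libraries moved these counts: 4 were called with MS023 without its replicate 2, 3 with GSK-591 without its replicate 1 or without untreated replicate 1, and 1 with GSK-484 without untreated replicate 1. In those fits 4914 of 15259 genes were called with MS023 without its replicate 2 and 3555 of 15260 with GSK-591 without its replicate 1. Without untreated replicate 1, 3213 of 15254 genes were called with GSK-591 and 924 with GSK-484.

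The untreated libraries also differed from the treated ones in base composition. The slope of log2 CPM over genes, for each 10 percentage points of GC in the transcript, was -0.316 to -0.154 in the 18 treated libraries and -0.455 to -0.374 in the 3 untreated ones. GC content was 53.4 to 62.9% in the transcripts of 6 of the 7 genes, where the median gene had 48.5%, and 42.3% in that of EHF. With the trend of each library removed, KRT18 differed from untreated cells by 0.21 with MS023, 0.12 with GSK-591 and 0.11 with GSK-484, and CLDN4 by 0.18, 0.11 and 0.079 with the same compounds. Then 3 of the 7 genes were called with MS023, 1 with GSK-591, 0 with GSK-484 and 2 with TP-472. Of all 14108 genes in that fit, 2257 were called with MS023, 1869 with GSK-591, 105 with GSK-484 and 1626 with TP-472. Against the other treated groups in place of untreated cells, 3 of the 7 were called with MS023, 0 with GSK-591 and 0 with GSK-484, and several differences changed sign. Of all 15062 genes, 2840 were called there with MS023, 1136 with GSK-591 and 19 with GSK-484. KRT15, KRT18 and CLDN4 with MS023, KRT15 and EHF with TP-472, and SBSN and EHF with UNC0642 were called in all 16 alternatives, as were the 5 JQ-1 differences of EHF, KRT15, KRT7, SBSN and KRT8. The alternatives reuse the libraries in which these genes were picked, so they describe dependence on the processing and add no independent support.

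**Figure D4:**
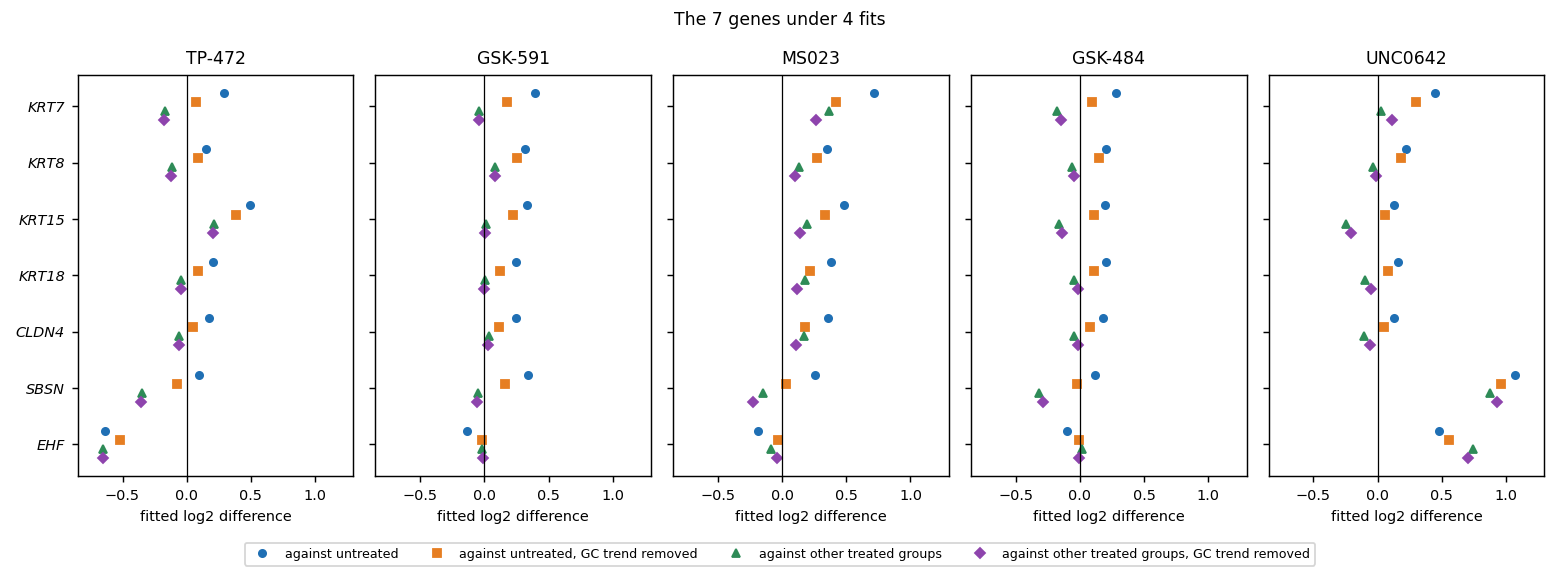
Fitted log2 difference of each gene (rows) for the 5 compounds other than JQ-1 (panels) under 4 fits: against untreated cells, the same with the GC trend of each library removed, against the other treated groups except JQ-1, and both together. KRT18 with GSK-484 is at 0.21 in the first fit and -0.017 in the last, while SBSN with UNC0642 stays at 0.87 to 1.07 and EHF with TP-472 at -0.65 to -0.52.

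GSK-591 and MS023, which act on different arginine methyltransferases, were compared directly. None of the 7 was called by edgeR or DESeq2, against 9.89% of all genes by edgeR (5.43% higher and 4.46% lower), and 3 had an unadjusted p under 0.05. The difference was -0.33 (SE 0.198) for KRT7, -0.14 (SE 0.052) for KRT15, -0.13 (SE 0.048) for KRT18 and -0.11 (SE 0.052) for CLDN4, all lower with GSK-591, and between -0.035 and 0.081 for KRT8, EHF and SBSN. KRT18 had 58.9, 55.8 and 60.4 CPM with GSK-591 and 62.0, 66.7 and 63.6 CPM with MS023, the only gene of the 7 without overlap, against 29.5% of all genes. Without MS023 replicate 3, 1 gene, KRT15, was called. Of the list genes 3 were higher and 3 lower with GSK-591 (8.96% called, median -0.042 against 0 for all genes), and 3 were called without GSK-591 replicate 3. KRT80 averaged 216 ± 2.98 CPM with GSK-591 and 249 ± 2.68 CPM with MS023 (-0.20, SE 0.035, edgeR adjusted p = 0.00095), and SNAI2 was higher with GSK-591 by 0.34 (SE 0.052), and both stayed called in all 14 alternatives.

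List genes were also called with MS023, GSK-591 and GSK-484. With MS023 14 rose and 7 fell, or 31.3% called against 42.6% of all genes (median 0.11 against -0.0083). Without MS023 replicate 2, 12 were called. PKP3 and KRT81 rose by 0.60 (SE 0.076) and 0.46 (SE 0.055) and CD24 fell by 0.23 (SE 0.043), and all 3 stayed called under all 16 alternatives. With GSK-591 9 rose and 5 fell, or 20.9% against 32.9% of all genes (median 0.080 against 0.0056). Without its replicate 1 or without untreated replicate 1, 9 were called. With GSK-484 5 rose and 4 fell, or 13.4% against 19.1% of all genes (median 0.029 against 0.0099). Of these list genes 4 were called without untreated replicate 1, 5 without untreated replicate 2 and 2 without GSK-484 replicate 1.

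Over the 7 group means the genes fell into patterns that were measured as the root mean square difference of log2 CPM, each gene centred on its own mean. KRT18 and CLDN4, on different chromosomes, had almost the same profile (0.013), and KRT8 lay 0.090 from KRT18 and 0.088 from CLDN4. KRT7 and KRT15 formed a second pair (0.164), SBSN lay 0.455 from KRT7, the nearest of the others, and EHF lay at least 1.80 from each of them. Among the other 15055 genes tested, the closest to KRT18 were DEF8 (0.017) and MTG2 (0.020), and the closest to CLDN4 was MTG2 (0.014). KRT8 was closest to PC (0.027) and MVP (0.031), KRT7 to SAMD10 (0.101) and ZNF219 (0.101), and KRT15 to CDC42EP1 (0.080) and TMEM121 (0.085). EHF had no near profile: the closest were CCR1, a chemokine receptor gene (0.393), and DMBT1, a gene of mucosal secretions (0.425). CCR1 averaged 0.217 CPM with JQ-1, 15.4 CPM with TP-472, 24.2 CPM with UNC0642 and 24.9 CPM in untreated cells, so it shared the low levels of EHF with the bromodomain ligands and not its higher level with UNC0642. The genes nearest to SBSN, LOC100130705 and CMBL, were below 0.5 CPM in every group mean. Each profile rests on 7 means that share the same libraries.

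In the order of group means, the neighbours mostly overlapped. EHF was highest with UNC0642, then untreated, GSK-484, GSK-591, MS023, TP-472 and JQ-1, and the steps from UNC0642 to untreated, MS023 to TP-472 and TP-472 to JQ-1 were separate while the others overlapped. SBSN was separate at the top (UNC0642 above GSK-591) and at the bottom (untreated above JQ-1), and between MS023 and GSK-484. KRT15 ran from TP-472 and MS023 to GSK-591, GSK-484, UNC0642, untreated and JQ-1, with separate steps from GSK-591 to GSK-484, GSK-484 to UNC0642 and untreated to JQ-1. KRT7 was separate only between untreated and JQ-1, the last 2. KRT18 and CLDN4 were both highest with MS023, separate from JQ-1 next to it, and lowest in untreated cells, separate from UNC0642, and KRT8 ran from JQ-1 to untreated with no separate step.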

How the data were processed

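The authors' deposited table holds expected counts per gene for 21 libraries, 1 column each and not scaled. Per the submitters' processing notes, Bowtie2 2.1.0, RSEM 1.2.15 and build hg38 were used, while neither the annotation nor the strand setting is stated in the sources used here. Here expected counts were rounded, filtered with filterByExpr (minimum count 10, minimum total 15), scaled by TMM and fitted with the edgeR 4.0.16 quasi-likelihood test on all 21 libraries with group as the only term (R 4.3.3). SE values come from the same fit, and p-values were adjusted by Benjamini-Hochberg over the 15062 genes tested. The procedure was tested on simulated data. Counting error limits genes with few counts.

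The members, lists and tests were chosen with earlier results of these data known. From the lists, the rule named up to 8 called genes in each direction by size of difference with JQ-1 and up to 4 in each other comparison, where the higher group reached 1 CPM and the groups were separate. The nearest protein-coding gene on each side of every member, the 2 genes with the closest profile and the fixed cell type markers were named too. The list genes KRT34, KRT10, KRT79, CLDN15, CLDN18, ZEB1, ZEB2, SNAI1, TWIST1 and TWIST2 with JQ-1 were named after their values were seen. 1 list gene was found under an older symbol. Positions, lengths and GC content came from GENCODE 29, and GC content was known for 93.7% of genes tested. The GC trend was a loess of log2 CPM on GC content (span 0.3). Alternatives were DESeq2 1.42.0, RLE and total-count scaling, no filter, a replicate block, both groups alone, the GC trend removed, the other treated groups as the reference (without JQ-1), both together, libraries thinned to the smallest total, and each replicate left out.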

Additional observations from a re-analysis of the deposited data

How the results depend on the processing

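Counts of the 7 genes called stayed within 1.5 times the reported one except as follows. With the GC trend removed 2 were called with TP-472, 1 with GSK-591, 3 with MS023 and 0 with GSK-484. Against the other treated groups they numbered 0 with GSK-591, 3 with MS023 and 0 with GSK-484, with both changes together again 0, 3 and 0, and with both groups fitted alone 0 with GSK-484. List genes called, 14 with TP-472, 14 with GSK-591, 21 with MS023, 9 with GSK-484 and 12 with UNC0642 as reported, came to 1, 6, 8, 0 and 1 with the GC trend removed, and to 5, 5, 12, 0 and 19 against the other treated groups. With the GC trend removed, 1626, 1869, 2257, 105 and 331 of all 14108 genes were called in the same order. Against the other treated groups, 1296, 1136, 2840, 19 and 4145 of all 15062 genes were called. With both changes the list genes called were 7 with GSK-591, 9 with MS023 and 0 with GSK-484, with both groups fitted alone 7 with GSK-591 and 0 with GSK-484, and in thinned libraries 5 with GSK-484. Over all genes, both changes gave 1529 calls of 14108 with GSK-591, 1865 with MS023 and 28 with GSK-484. Both groups fitted alone gave 3767 of 14357 with GSK-591 and 9 of 14430 with GSK-484, and thinned libraries 2136 of 14322 with GSK-484.

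Leaving out each replicate, the 7 genes gave 7 to 7 calls with JQ-1, 3 to 4 with TP-472, 3 to 5 with GSK-591, 4 to 7 with MS023, 1 to 3 with GSK-484, 2 to 4 with UNC0642, 5 to 5 for TP-472 against JQ-1 and 0 to 1 for GSK-591 against MS023. List genes gave 39 to 46, 7 to 15, 9 to 18, 12 to 25, 2 to 11, 8 to 12, 43 to 45 and 3 to 6 in the same order of comparisons. Calls over all genes moved as well. Without untreated replicate 1, of all 15254 genes 2789 were called with TP-472, 3213 with GSK-591 and 5079 with MS023. With GSK-484 924 were called there, and with UNC0642 2026.

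For differences called as reported, the sign turned against the other treated groups, without and with the GC trend removed, for KRT18 (-0.042 and -0.042) and CLDN4 (-0.057 and -0.058) with TP-472, SBSN with GSK-591 (-0.049 and -0.059), SBSN with MS023 (-0.15 and -0.23), and KRT18 with UNC0642 (-0.099 and -0.053). With GSK-484 it turned for KRT15 (-0.17 and -0.14), KRT18 (-0.042 and -0.017) and CLDN4 (-0.044 and -0.018). KRT18 with GSK-591 turned with both changes only (-0.0015). Why these values turned was not tested. These are 17 values. In all, 45 of 868 log2 differences of the 7 genes under the alternatives changed sign, and 28 of them had not been called as reported. Of those 28, the ones called the other way were KRT15 with UNC0642 (-0.25 and -0.21) and SBSN with TP-472 (-0.35 and -0.36), against the other treated groups without and with the GC trend removed, and KRT18 with UNC0642, listed above, was called lower in the first of these.

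Same-numbered libraries of different groups showed no common deviation over all genes: their correlation had a median of -0.0024 over 63 pairs (-0.16 to 0.137, 2 over 0.1). Such a correlation cannot show a pairing that touches few genes or has a small effect. With the replicate block 7 of the 7 genes were called with JQ-1, 4 with TP-472, 5 with GSK-591, 6 with MS023, 3 with GSK-484 and 3 with UNC0642. The transcript paired with RefSeq was added as a length after seeing the data. Depth limits EHF with JQ-1, which rests on 15 counts in 3 libraries, and KRT7 with JQ-1, on 99.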

Other observations

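Further genes of the fixed lists passed the edgeR quasi-likelihood test with single compounds. With MS023, ST14, which encodes the membrane protease matriptase, averaged 1.19 ± 0.131 CPM against 0.637 ± 0.055 CPM in untreated cells (log2 difference 0.90, SE 0.252, edgeR adjusted p = 0.0057), and PERP, a desmosome protein gene, averaged 177 ± 5.44 against 207 ± 6.90 CPM (-0.23, SE 0.040). With TP-472, KLF4, a transcription factor gene of skin and gut epithelium, averaged 51.6 ± 1.33 against 45.0 ± 0.308 CPM in untreated cells (0.20, SE 0.045), and MUC1, a mucin of glandular surfaces, 1.53 ± 0.189 against 0.999 ± 0.246 CPM (0.62, SE 0.209). With GSK-591, TJP1, which encodes the tight junction scaffold ZO-1, averaged 59.0 ± 2.096 against 71.7 ± 6.10 CPM in untreated cells (-0.28, SE 0.067). The calls of ST14, PERP, KLF4 and MUC1 ended with the GC trend of each library removed, and that of TJP1 ended against the other treated groups. MUC1 also lost its call in 9 of 16 alternatives, among them without untreated replicate 1 or 2 and without TP-472 replicate 2 or 3.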
